A study of Mus musculus with 6 samples.

Results

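The 10 genes described here drive or restrain the passage from G1 into S phase: the D cyclin genes Ccnd1, Ccnd2 and Ccnd3, the E cyclin genes Ccne1 and Ccne2, the kinase genes Cdk2, Cdk4 and Cdk6, the retinoblastoma gene Rb1 and the transcription factor gene E2f1. They were chosen by gene symbol from a table of 24054 genes, and all 10 were found and passed the filter on low counts, as did 10975 genes in all. The study sequenced total RNA from a mouse line, TIBx, whose cell type is labelled liver BNL 1ME A.7R.1. It compared the parental line (genotype WT, 3 libraries, replicates A to C) with the line TIBxDNAJ-PKAc (genotype DNAJ-PKAc, 3 libraries, replicates A to C), which the labels call an FLC line, after fibrolamellar carcinoma of the liver. DNAJ-PKAc joins the start of the heat shock co-chaperone DNAJB1 to the catalytic subunit of protein kinase A, and both lines share one culture medium and no stated drug treatment. There was a single line per genotype, so line and genotype cannot be told apart. The sources used here do not give how the fusion was introduced, whether the line is a clone or whether replicates were separate cultures, and p-values then measure only the spread between these libraries.

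D cyclins are made in response to growth signals and activate CDK4 and CDK6, which begin to phosphorylate the RB protein. RB otherwise holds E2F factors in check, and released E2F switches on genes of DNA replication together with the E cyclins, whose partner CDK2 completes the phosphorylation of RB. E2F activity is set largely by RB binding rather than by the amount of E2F RNA alone, and loss of RB pathway control is a common event in liver and other tumours.

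Library totals ran from 8095549 to 9969590 expected counts. Across genes, the log2 values of DNAJ-PKAc A and B correlated at 0.993, whereas DNAJ-PKAc C correlated with them at 0.914 and 0.911. The correlations of DNAJ-PKAc C with WT A, B and C were 0.928, 0.912 and 0.933, so it was no closer to its own group than to WT. WT B correlated with WT A and C at 0.957 and 0.958, and WT A with WT C at 0.987. DNAJ-PKAc C and WT B thus stood apart from their groups, and results that rest on them are given with and without them. They were singled out from these same data. A fit without DNAJ-PKAc C describes the closely alike libraries A and B against WT, and its calls are no independent support. Of 10 hepatocyte markers 8 had no count in any library, among them Alb and Hnf4a. The only one tested, Krt8, was at 8.11, 7.47 and 7.51 CPM in the WT libraries, against 1.39, 1.11 and 0.122 CPM in those of DNAJ-PKAc, and fell (log2 -3.09, edgeR adjusted p = 0.0360). Its DNAJ-PKAc values rest on 14, 9 and 1 counts. The call was lost without WT B (edgeR adjusted p = 0.108) and held without DNAJ-PKAc C (adjusted p = 0.00150). The largest edgeR adjusted p with 1 library left out was 0.1305, so the loss was not particular to WT B. By contrast, Vim, an intermediate filament gene of mesenchymal cells, lay between 11560 and 14220 CPM (counts scaled to the library size, with TMM factors). Leukocyte markers summed to at most 5.19 CPM and endothelial markers to at most 2.32 CPM in any library.

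With all 6 libraries, 0 of the 10 genes passed the test in either direction (quasi-likelihood test of edgeR, threshold 0.05 on the Benjamini-Hochberg adjusted p over all genes tested), beside 3.51% of all genes tested (1.37% higher and 2.14% lower in DNAJ-PKAc). At an unadjusted p under 0.05, 4 of the 10 were higher and 0 lower, beside 11.8% and 9.72% of all genes tested. In 4 genes, Ccnd3, Ccne1, Cdk2 and Cdk4, every DNAJ-PKAc library lay above every WT library, and in Ccnd1 every DNAJ-PKAc library lay below. The groups did not overlap in 28.9% of all genes tested (15.8% higher and 13.1% lower), so 5 of 10 is set against a high background. All of the 10 but Ccne1 and E2f1 overlap another annotated gene, so part of their reads could come from a neighbour. The median log2 difference of the 10 genes was 0.37, against 0.05 over all genes tested. The genes ranged from -0.54 for Ccnd2 to 1.49 for Ccne1.

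**Figure D1:**
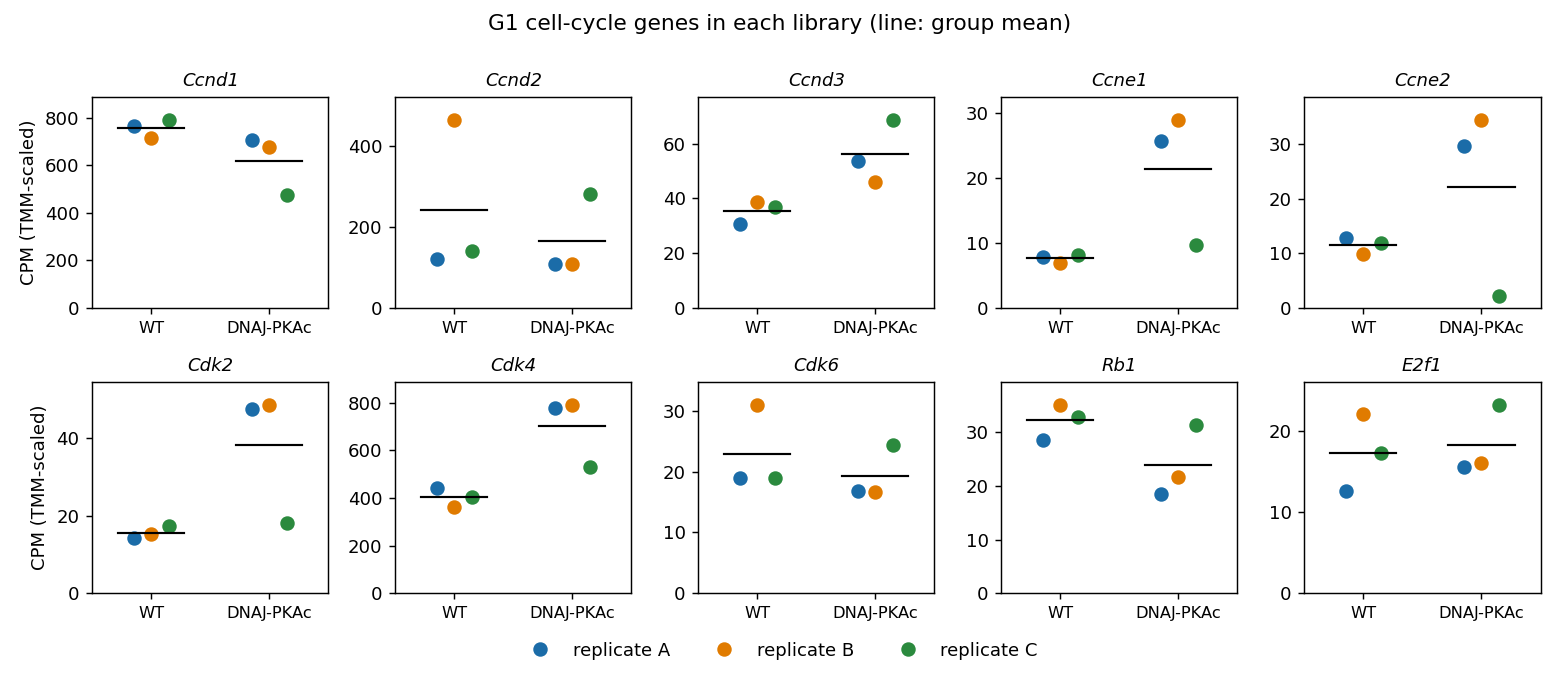
Level of each of the 10 genes in every library in TMM-scaled CPM on the y axis (each panel has its own scale from 0), with WT and DNAJ-PKAc on the x axis, points for libraries and lines for group means. Ccne1, Cdk2 and Cdk4 are highest in DNAJ-PKAc A and B (for Cdk4, 781 and 792 CPM), with DNAJ-PKAc C (531 CPM) between them and WT, while Ccne2 drops to 2.19 CPM in DNAJ-PKAc C.

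Among the D cyclins, Ccnd1, whose product binds CDK4 and CDK6 (chromosome 7, 144929931 to 144939831, minus strand, GRCm38.p6), was at 764, 713 and 791 CPM in the WT libraries, against 706, 675 and 474 CPM in those of DNAJ-PKAc (values always in the order A, B, C). The groups did not overlap, though DNAJ-PKAc A lay just under WT B. The log2 difference was -0.29 (SE 0.19, edgeR adjusted p = 0.398). Without DNAJ-PKAc C, the lowest library, it was -0.13 (adjusted p = 0.507).

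Ccnd2, another D cyclin gene (chromosome 6, 127125162 to 127152188, minus strand), was at 121, 466 and 141 CPM in the WT libraries, against 108, 109 and 282 CPM in those of DNAJ-PKAc. It was high in WT B and in DNAJ-PKAc C, the libraries that stood apart, and close to 100 CPM or a little above in the other 4. WT B held 3.55 times the mean of WT A and C. The log2 difference of -0.54 (SE 0.61, edgeR adjusted p = 0.619) turned to 0.29 without WT B (adjusted p = 0.764) and grew to -1.15 without DNAJ-PKAc C (adjusted p = 0.210), so the data give no direction for Ccnd2.

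Ccnd3, the third D cyclin gene (chromosome 17, 47505051 to 47599689, plus strand), was at 30.7, 38.6 and 37.0 CPM in the WT libraries, against 53.6, 45.9 and 68.7 CPM in those of DNAJ-PKAc. All DNAJ-PKAc libraries were above all WT libraries, and DNAJ-PKAc C was the highest of all. The fitted fold was 1.58 (log2 0.66, SE 0.20) and missed the threshold (edgeR adjusted p = 0.132). It did so too without DNAJ-PKAc C (log2 0.49, adjusted p = 0.0660).

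Levels of different genes were compared per length, as CPM per kilobase of the longest coding transcript. On that scale Ccnd1 stood at 202 ± 10.6 in WT and 165 ± 33.7 in DNAJ-PKAc (SD, n = 3), Ccnd2 at 38.3 ± 30.5 and 26.3 ± 15.8, and Ccnd3 at 16.8 ± 1.98 and 26.6 ± 5.49. Ccnd1 held 85.9%, 67.5% and 84.2% of the summed D cyclin level in the WT libraries, against 81.6%, 82.2% and 62.2% in those of DNAJ-PKAc. The low shares were again those of WT B and DNAJ-PKAc C, and the group means of 79.2% and 75.3% differed by less than the spread (exact permutation test, 2-sided, p = 0.5). Which gene led depended on the length taken: with the mean over coding transcripts, Ccnd1 held 43.8% and Ccnd2 47.8% in WT B, and 39.8% and 39.5% in DNAJ-PKAc C, while Ccnd1 led in the other 4 libraries. The Ccnd3 share did not overlap between groups. It was 6.10%, 6.47% and 6.96% in WT and 11.0%, 9.91% and 16.0% in DNAJ-PKAc. Its exact permutation p of 0.1 (adjusted p = 0.25 over the 5 shares tested) is the smallest that 3 libraries against 3 can give, so it could not pass.

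The E cyclins parted in DNAJ-PKAc C. Ccne1, which encodes an activator of CDK2 (chromosome 7, 38097984 to 38107490, minus strand), was at 7.78, 6.89 and 8.17 CPM in the WT libraries, against 25.6, 28.9 and 9.63 CPM in those of DNAJ-PKAc. Libraries A and B of DNAJ-PKAc lay at 3.37 and 3.80 times the WT mean, and C only a little above the highest WT library. The fitted fold was 2.81 (log2 1.49, SE 0.40, edgeR adjusted p = 0.108). By DESeq2 the difference passed (log2 1.45, adjusted p = 0.0162). It also passed by edgeR once DNAJ-PKAc C was left out (log2 1.84, adjusted p = 0.00117).

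Ccne2, the gene of the other E cyclin (chromosome 4, 11190433 to 11204779, plus strand), was at 12.8, 9.92 and 11.9 CPM in the WT libraries, against 29.7, 34.5 and 2.19 CPM in those of DNAJ-PKAc, the last from 18 counts. DNAJ-PKAc A and B were the highest libraries and C was the lowest, with the mean of A and B 14.6 times the level in C. The log2 difference over all libraries was 0.94 (SE 0.78, edgeR adjusted p = 0.502). Leaving out DNAJ-PKAc C gave 1.47, which passed (adjusted p = 0.00249). Ccne1 made up 47.7%, 51.1% and 50.7% of the per-length E cyclin level in WT and 56.5%, 55.8% and 86.8% in DNAJ-PKAc. The groups did not overlap in this share, and the difference was 16.5 percentage points with all libraries (exact permutation test, 2-sided, p = 0.1, adjusted p = 0.25) and 6.29 without DNAJ-PKAc C.

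**Figure D2:**
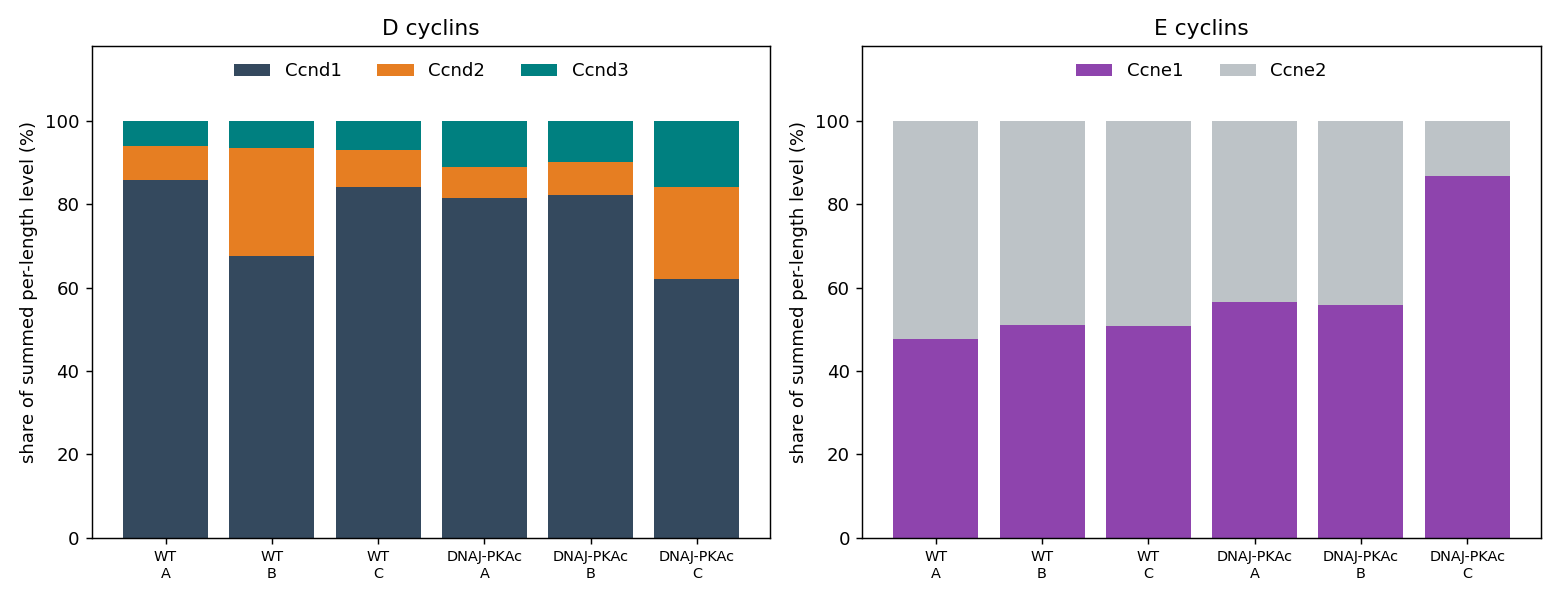
Shares of the summed level per length (y axis, %) that each D cyclin gene (left) and each E cyclin gene (right) held in each of the 6 libraries (x axis). Ccnd2 takes a larger part in WT B (26.0%) and DNAJ-PKAc C (21.9%) than in the other 4 libraries, and Ccne1 takes 86.8% of the E cyclin level in DNAJ-PKAc C.

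Of the kinases, Cdk2, which encodes the partner of E and A cyclins (chromosome 10, 128697938 to 128705051, minus strand), was at 14.1, 15.2 and 17.2 CPM in the WT libraries, against 47.5, 48.5 and 18.2 CPM in those of DNAJ-PKAc. Both A and B of DNAJ-PKAc were far above WT, and C lay just above the highest WT library. The fitted fold of 2.45 (log2 1.30, SE 0.37) missed the threshold by edgeR (adjusted p = 0.120) and passed by DESeq2 (adjusted p = 0.0273). Without DNAJ-PKAc C it was 3.10 (edgeR adjusted p = 0.00109).

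Cdk4, which encodes a kinase partner of D cyclins (chromosome 10, 127063535 to 127067288, plus strand), was at 444, 362 and 404 CPM in the WT libraries, against 781, 792 and 531 CPM in those of DNAJ-PKAc. All DNAJ-PKAc libraries were above all WT libraries, with C the lowest of them. The fitted fold was 1.74 (log2 0.80, SE 0.20, edgeR adjusted p = 0.0912), the smallest adjusted p of the 10 genes. It passed by DESeq2 (adjusted p = 0.0252) and without DNAJ-PKAc C (fold 1.95, edgeR adjusted p = 0.00526).

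Cdk6, the gene of the other D cyclin kinase (chromosome 5, 3341004 to 3531008, plus strand), was at 19.0, 31.0 and 19.0 CPM in the WT libraries, against 16.8, 16.7 and 24.5 CPM in those of DNAJ-PKAc. As with Ccnd2, the high libraries were WT B and DNAJ-PKAc C, and the groups overlapped (log2 -0.25, SE 0.27, edgeR adjusted p = 0.610). The log2 difference was -0.02 without WT B (adjusted p = 0.969) and -0.45 without DNAJ-PKAc C (adjusted p = 0.231). Per length, Cdk4 stood at 196 ± 20.0 in WT and 342 ± 72.0 in DNAJ-PKAc, and Cdk6 at 1.99 ± 0.605 and 1.68 ± 0.388 (SD, n = 3). Cdk4 therefore held between 98.5% and 99.6% of their summed level in every library, and the group means of 99.0% and 99.5% differed by little (exact permutation test, 2-sided, p = 0.2).

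Rb1, which encodes the restraining pocket protein (chromosome 14, 73192858 to 73325951, minus strand), was at 28.6, 35.1 and 32.9 CPM in the WT libraries, against 18.5, 21.6 and 31.4 CPM in those of DNAJ-PKAc. DNAJ-PKAc A and B lay below every WT library and C within the WT range. The log2 difference was -0.43 (SE 0.23, edgeR adjusted p = 0.312) with all libraries. Without DNAJ-PKAc C it was -0.68, a 1.60-fold lower level, and passed (adjusted p = 0.0280).

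E2f1, which encodes an activator of S phase genes held by RB (chromosome 2, 154559400 to 154569892, minus strand), was at 12.6, 22.2 and 17.3 CPM in the WT libraries, against 15.6, 16.1 and 23.3 CPM in those of DNAJ-PKAc. These values rest on 115 to 191 counts per library. Those of DNAJ-PKAc A and B lay within the WT range, and C was the highest library. The log2 difference was 0.08 (SE 0.28, edgeR adjusted p = 0.887), and it turned to -0.13 without DNAJ-PKAc C and to -0.11 without WT A.

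**Figure D3:**
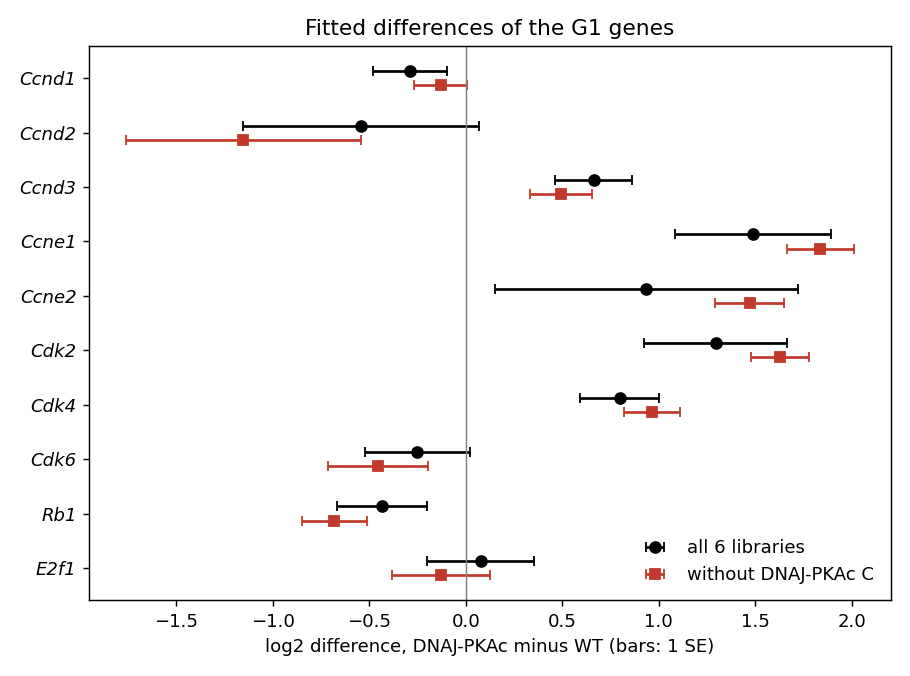
Fitted log2 difference (x axis, DNAJ-PKAc minus WT) of each gene (y axis) with all 6 libraries (circles) and without DNAJ-PKAc C (squares), with bars of 1 SE derived from the edgeR test statistic. Ccne1, Ccne2, Cdk2 and Cdk4 have larger differences without DNAJ-PKAc C (Ccne2 0.94 and 1.47), and E2f1 stays near 0 in both.

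Without DNAJ-PKAc C, 4 of the 10 genes rose (Ccne1, Ccne2, Cdk2 and Cdk4) and 1 fell (Rb1), beside 14.3% of all genes tested that rose and 11.0% that fell in the same fit. By DESeq2 with all libraries, Ccne1, Cdk2 and Cdk4 rose and 0 fell, beside 3.17% of all genes that rose. Leaving out any other 1 library gave 0 calls among the 10. DNAJ-PKAc A and B both lay above every WT library in 5 of the 10 genes, against 32.5% of all genes tested. DNAJ-PKAc C lay below every WT library in 2 of the 10 (Ccnd1 and Ccne2), against 29.5%. In Ccne2 both held, as in 7.88% of all genes tested.

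The sequence before the transcription start is shown for the 4 genes whose DNAJ-PKAc libraries all lay above WT, since the RB-E2F switch and the cyclic AMP response are both known to act through promoter motifs. The windows are from RefSeq on GRCm38.p6, where 6 of the 10 genes were matched (Ccnd3 with 2 starts, of which the upstream one is shown), and run 5′ to 3′ on the gene's strand through the 250 bases before the start, shortened where an annotated exon lies, which for Cdk2 is an exon of its opposite-strand neighbour Pmel. They lie at chr17:47504801-47505050 (Ccnd3, plus strand), chr7:38107535-38107740 (Ccne1, minus), chr10:128705052-128705179 (Cdk2, minus) and chr10:127063285-127063533 (Cdk4, plus). Capitals mark an E2F motif (TTTCCCGC, TTTCGCGC, TTTGCCGC or TTTGGCGC), the short form TGACG of the cyclic AMP response element, or the E box CACGTG, each on either strand.
Ccnd3: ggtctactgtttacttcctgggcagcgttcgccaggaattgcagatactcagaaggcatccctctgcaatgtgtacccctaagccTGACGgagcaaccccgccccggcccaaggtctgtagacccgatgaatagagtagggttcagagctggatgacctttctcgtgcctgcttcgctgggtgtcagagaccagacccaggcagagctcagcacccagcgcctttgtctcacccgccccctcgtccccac
Ccne1: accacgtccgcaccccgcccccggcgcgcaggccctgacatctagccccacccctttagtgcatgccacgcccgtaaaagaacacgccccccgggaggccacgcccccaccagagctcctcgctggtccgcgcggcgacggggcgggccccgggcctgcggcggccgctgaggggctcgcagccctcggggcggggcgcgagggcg
Cdk2: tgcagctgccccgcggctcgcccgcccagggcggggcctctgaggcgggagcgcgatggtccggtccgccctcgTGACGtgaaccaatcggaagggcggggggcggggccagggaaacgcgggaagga
Cdk4: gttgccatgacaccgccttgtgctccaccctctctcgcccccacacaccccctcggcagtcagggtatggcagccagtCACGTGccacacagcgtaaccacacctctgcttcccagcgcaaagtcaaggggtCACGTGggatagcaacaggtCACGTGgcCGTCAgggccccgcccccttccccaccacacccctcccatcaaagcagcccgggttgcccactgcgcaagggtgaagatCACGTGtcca

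Cdk2 held 1 E2F motif, read as GCGGGAAA on the gene's strand, between 140 and 133 bases before its start, within the Pmel exon that is left out above. No other matched window had one, nor did any hold the full cyclic AMP element TGACGTCA. The windows of E2f1 (chr2:154569427-154569676) and Cdk6 (chr5:3343643-3343892) lay inside the gene coordinates given above. All 250 bases of the E2f1 window were annotated E2f1 exon. The bases before the outermost start of these genes were therefore not searched. Of all 32851 promoters of the same window length, 1.86% held an E2F motif and 1.55% the full element. The short form lay in the Ccnd3, Cdk2 and Cdk4 windows and not in that of Ccne1, and in 17.8% of all promoters. It was also found in the matched windows of Cdk6 and E2f1, whose groups overlapped. Cdk4 held 4 E boxes, the first of them 172 to 167 bases before the start, a motif searched after the sequence had been seen, which 6.02% of all promoters held at least once. The Cdk6 window held 1 E box. The GC box GGGCGG was found in all 4 windows, 4 times in the full window of Ccne1 and 5 times in that of Cdk2, and in 32.7% of all promoters. None of the motifs overlapped another in the stretches in capitals. A match is a description of letters and not a measured site.

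The rest of the RB-E2F machinery gave 0 calls among 11 other E2F, DP and pocket protein genes by edgeR and by DESeq2, with a median log2 difference of 0.20. At an unadjusted p under 0.05, 0 were higher and 1 was lower, beside 11.8% and 9.72% of all genes tested. Tfdp2 and Tfdp1, which encode the dimer partners of E2F, had the smallest adjusted p of the list and lay in opposite directions. Tfdp1 was at 135, 112 and 139 CPM in the WT libraries, against 218, 221 and 126 CPM in those of DNAJ-PKAc (log2 0.55, edgeR adjusted p = 0.245). Tfdp2 was at 37.1, 44.5 and 48.7 CPM in the WT libraries, against 22.8, 25.3 and 39.0 CPM in those of DNAJ-PKAc (log2 -0.58, adjusted p = 0.226). The pocket protein genes were split as well: Rbl1 (p107) lay at log2 0.37 (adjusted p = 0.456) and Rbl2 (p130), whose groups did not overlap, at -0.39 (adjusted p = 0.251). Without DNAJ-PKAc C 3 genes of this list rose (E2f7, Tfdp1 and Rbl1) and 2 fell (Tfdp2 and Rbl2) by edgeR, beside 14.3% of all genes that rose and 11.0% that fell.

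CDK inhibitor genes gave 0 calls among 5 tested of 7 by edgeR and by DESeq2. At an unadjusted p under 0.05, 1 was higher and 0 lower, beside 11.8% and 9.72% of all genes tested. Cdkn2c (p18, an inhibitor of CDK4 and CDK6) was above WT in every DNAJ-PKAc library (log2 0.57, edgeR adjusted p = 0.205), and Cdkn2d (p19) lay at 0.77 (adjusted p = 0.253). DNAJ-PKAc C held the highest levels of Cdkn2b (p15) and Cdkn1b (p27): Cdkn2b was at 212 CPM there and between 86.8 and 120 CPM in the other 5 libraries, and Cdkn1b at 95.7 CPM and between 50.9 and 62.9 CPM. Without DNAJ-PKAc C, Cdkn2d, 1 of the 5, rose and 0 fell, beside the same 14.3% and 11.0% of all genes.

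Among 15 genes of CDK activation, inhibitory phosphorylation and G1 cyclin turnover, 1 rose and 0 fell with all libraries, beside 1.37% and 2.14% of all genes tested. All 15 had a log2 difference above 0 (median 0.45), beside 5917 of all 10975 genes tested. The gene that rose was Skp2, which encodes the ubiquitin ligase subunit that marks p27 for destruction. It was at 23.1, 20.7 and 27.4 CPM in the WT libraries, against 55.0, 52.9 and 49.6 CPM in those of DNAJ-PKAc, so DNAJ-PKAc C did not stand apart. The fold was 2.21 (log2 1.15, SE 0.17, edgeR adjusted p = 0.0171). The call was lost when any 1 library other than DNAJ-PKAc C was left out (adjusted p between 0.0569 and 0.0966, log2 between 1.01 and 1.26) and held when DNAJ-PKAc C was (adjusted p = 0.00393). Cks1b, which encodes the partner of SKP2 in that reaction, was at 33.1, 29.3 and 36.8 CPM in the WT libraries, against 88.9, 91.0 and 38.8 CPM in those of DNAJ-PKAc (log2 1.14, edgeR adjusted p = 0.121). It passed by DESeq2 (adjusted p = 0.0341) and by edgeR once DNAJ-PKAc C was left out (log2 1.44, adjusted p = 0.00138). In that fit 6 of the 15 rose and 0 fell, beside 14.3% and 11.0% of all genes tested. By DESeq2 with all libraries 2 of the 15 rose, Skp2 and Cks1b, beside 3.17% of all genes.

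Downstream, all 34 E2F target genes of the G1/S transition had a log2 difference above 0 (median 1.36), beside 5917 of all 10975 genes tested. Yet 0 rose or fell by edgeR with all libraries, beside 1.37% and 2.14% of all genes tested. By DESeq2 2 of the 34 rose, beside 3.17% of all genes. At an unadjusted p under 0.05, 10 were higher and 0 lower, beside 11.8% and 9.72% of all genes tested. DNAJ-PKAc A and B lay above every WT library in 33 of the 34, against 32.5% of all genes tested, and DNAJ-PKAc C lay below every WT library in 28, against 29.5%. Relative to the WT mean, the median gene of the list lay at 1.79 in A, 1.87 in B and -0.84 in C on the log2 scale. Mcm5, which encodes a subunit of the replicative helicase, was at 45.8, 37.7 and 50.7 CPM in the WT libraries, against 215, 218 and 10.2 CPM in those of DNAJ-PKAc. The genes of smallest adjusted p were Chaf1b, a histone chaperone gene (log2 1.90, edgeR adjusted p = 0.135), and Slbp, the histone mRNA binding protein gene (0.83, adjusted p = 0.140), the only one of the list above every WT library in DNAJ-PKAc C. When that library was left out, 30 of the 34 rose and 0 fell, beside the 14.3% of all genes given above. Since it was low in most genes of the list, its removal made such calls likely in advance.

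The cyclins of S phase and mitosis with Cdk1 showed the same layout: 0 of 5 tested genes rose or fell with all libraries by edgeR. By DESeq2 1 rose, beside 3.17% of all genes. At an unadjusted p under 0.05, 2 were higher, beside 11.8% of all genes tested. The fit without DNAJ-PKAc C called 5 higher, beside 14.3% of all genes tested. Cdk1, the mitotic kinase gene, was at 57.5, 39.2 and 61.8 CPM in the WT libraries, against 275, 306 and 54.0 CPM in those of DNAJ-PKAc (log2 2.00, edgeR adjusted p = 0.127). Ccnb1, a mitotic cyclin gene, was at 52.1, 35.0 and 52.2 CPM in the WT libraries, against 230, 259 and 20.5 CPM in those of DNAJ-PKAc (log2 1.87, adjusted p = 0.228). In DNAJ-PKAc C, then, Ccnd3, Cdk4 and Skp2 lay above every WT library, as they did in A and B, and so by a small margin did Ccne1, Cdk2 and Cks1b. E2f1 also lay above every WT library in C, at 23.3 CPM, but not in A and B. Ccnd1, Ccne2, Ccna2, Ccnb1, Ccnb2, Ccnf and 28 of the 34 E2F targets lay below every WT library in C, beside 29.5% of all genes tested. So did Cdc25b, Cdc25c, Wee1 and Pkmyt1, 4 of the 15 genes of CDK activation, inhibitory phosphorylation and turnover, of which 8 lay above. Of the 11 other E2F, DP and pocket protein genes, 6 lay below every WT library in C and 2 above.

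Other genes moved with this division of the DNAJ-PKAc libraries. Fibroblast and stellate markers, mostly Vim, Col1a2 and Col3a1, summed to between 25240 and 26520 CPM in WT. They summed to 16380 and 16140 CPM in the DNAJ-PKAc libraries A and B and to 30060 CPM in C. In C, Col1a2 was at 11140 CPM (5910 to 7954 CPM in WT), while Vim and Col3a1 lay within the WT range. Of the 8 tested, 3 lay above every WT library in C and 0 below. Lum was at or near 0 in all 6 libraries and Thy1 at 0. With all libraries 1 of the 8 was called, Acta2, which rose (edgeR adjusted p = 0.0102), beside 1.37% of all genes tested. Without DNAJ-PKAc C, 6 of the 8 fell, among them Col3a1 (log2 -2.33, edgeR adjusted p = 0.000831), and 1 rose, Acta2. Of all genes tested, 11.0% fell and 14.3% rose in that fit, the one that called the cell cycle genes higher. Acta2 missed the threshold without WT B (edgeR adjusted p = 0.0569). Cholangiocyte markers, mostly Spp1, summed to between 884 and 2151 CPM in WT, to 364 and 385 CPM in A and B and to 3150 CPM in C, with Krt19 and Epcam at 0 in all libraries. The other tested marker of that list, Sox9, was lowest in C, at 19.7, 56.0 and 21.4 CPM in the WT libraries, against 10.2, 11.9 and 8.53 CPM in those of DNAJ-PKAc (edgeR adjusted p = 0.0955, DESeq2 adjusted p = 0.00336). The part of either list in the levels of the cell cycle genes was not tested. In bulk RNA a smaller share of cycling cells and less RNA per cycling cell cannot be told apart.

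**Figure D4:**
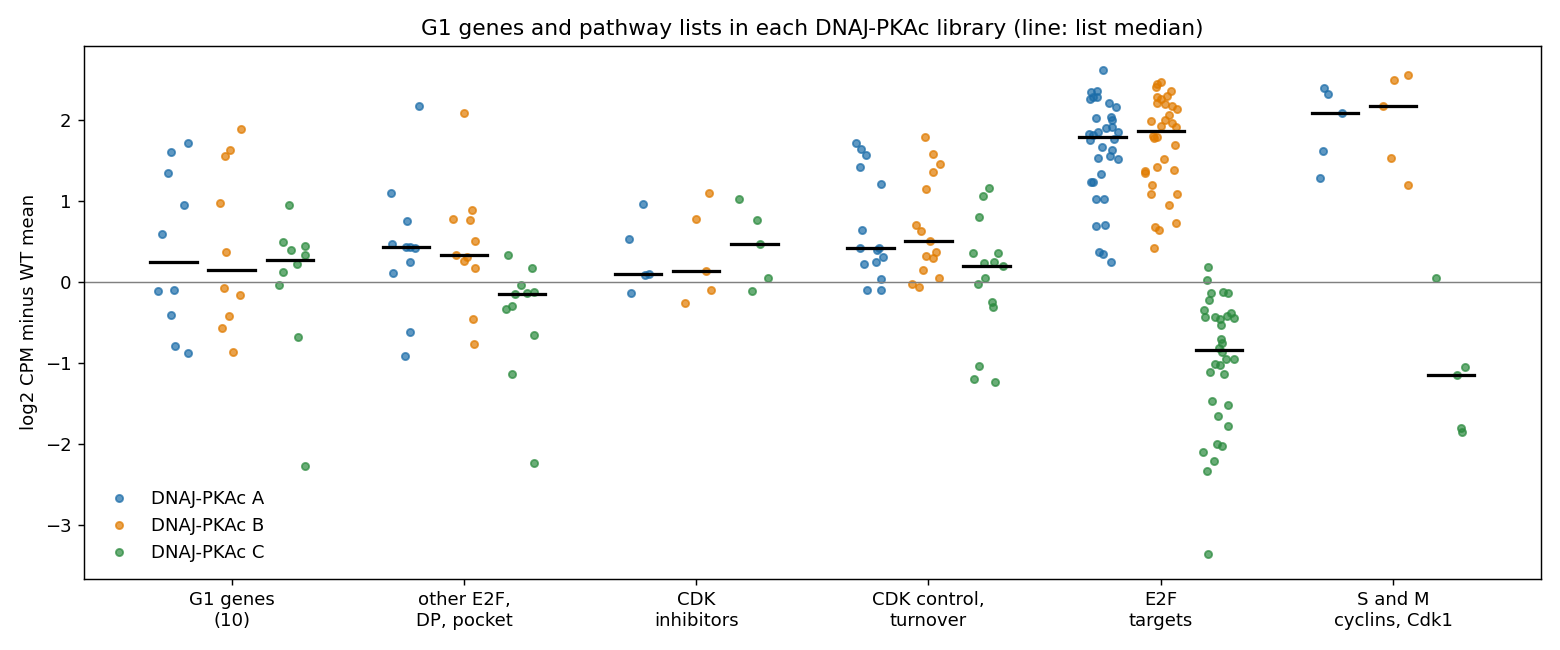
Log2 CPM minus the WT mean (y axis) of every tested gene of the 10 and of 5 pathway lists (x axis) in DNAJ-PKAc A, B and C (colours), with a line at each list's median. E2F targets have medians of 1.79, 1.87 and -0.84 in A, B and C, whereas those of the CDK inhibitors are 0.10, 0.14 and 0.47.

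Factors upstream of D cyclins and the MuvB core, which binds pocket proteins to repress cell cycle genes, gave 0 calls with all libraries by edgeR and by DESeq2. At an unadjusted p under 0.05, 1 of 13 upstream factors was higher and 2 were lower, and 1 of 5 MuvB genes was higher. Of all genes tested, 11.8% were higher and 9.72% lower at that threshold. Ets2 (log2 0.59, edgeR adjusted p = 0.150) and Jun (-0.59, adjusted p = 0.205) led the upstream factors, and Rbbp4 (0.43, adjusted p = 0.204) and Lin9 (0.66, adjusted p = 0.270) the MuvB genes. Without DNAJ-PKAc C, Lin9 (adjusted p = 0.0134) and Lin54 (adjusted p = 0.0297) rose by edgeR, 2 of 5 beside 14.3% of all genes, and 0 upstream factors rose or fell.

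Of 9792 tested genes with a mean of at least 5 CPM, those whose log2 level followed each of the 10 most closely over the 6 libraries were read as a description. Cdk4 was nearest to Atp5b, a subunit gene of the mitochondrial ATP synthase (Pearson r = 0.9995), which was at 1647, 1368 and 1531 CPM in the WT libraries, against 3012, 3032 and 1989 CPM in those of DNAJ-PKAc. Cdk2 was nearest to Coq7 (0.9994), an enzyme gene of ubiquinone synthesis, Ccne1 to Slc16a1 (0.9979), a lactate transporter gene, and Ccne2 to Ttc32 (0.9974). Ccnd2 was nearest to Gfpt1 (0.9978), the first enzyme of the hexosamine pathway, at 101, 210 and 106 CPM in WT and 90.4, 92.9 and 152 CPM in DNAJ-PKAc. Ccnd1 was nearest to Gm13889 (0.9926), Ccnd3 to Sh3bp4 (0.9985), Cdk6 to Arhgap23 (0.9962) and Rb1 to Stxbp4 (0.9948). For E2f1 the 5 nearest were Cep85l (0.9795), Rab11b (0.9741), Mon2 (0.9729), Arnt (0.9725) and Plekha5 (0.9689). The 6 points are the libraries described above and no test was made. Each neighbour was picked for its high correlation among 9792 genes, so values near the top were likely in advance.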

How the data were processed

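Per the labels' protocols, a stranded total RNA kit was used. Values are expected counts by gene symbol that the authors deposited without normalization, with a column for each of the 6 libraries. The submitters' processing notes list STAR 2.5.2b, RSEM 1.3.0 and mm10 but not what each was used for. Neither the annotation nor the strand setting of the counting was found in those notes, the labels or the file. All of the 10 genes but Ccne1 and E2f1 overlap another annotated gene, and Ccnd3 has a pseudogene, so their reads could be shared and their values are uncertain to that extent.

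Expected counts were rounded, filtered by filterByExpr (minimum count 10), scaled by TMM and fitted with edgeR 4.0.16 in R 4.3.3 (robust quasi-likelihood, group as the only term, 2-sided, Benjamini-Hochberg over all genes tested, threshold 0.05). Alternatives were other scalings and filters, DESeq2 1.42.0, limma-voom (limma 3.58.1), the replicate letter as a block and each library left out. The SEs given are the absolute log2 difference divided by the square root of the F statistic of the edgeR test. The fits were tested on simulated data. Transcript lengths and overlaps are from GENCODE M21, coordinates from RefSeq on GRCm38.p6. All of the 10 genes were named. From each list the 2 of smallest adjusted p were named, with up to 2 more that a result turned on, and likeness was searched at a log2 prior count of 2. The genes, lists and tests were chosen with earlier results of these data known.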

Additional observations from a re-analysis of the deposited data

How the results depend on the processing

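The number of genes called over the whole table, 385 with all libraries, was 974 by DESeq2, 199 with the replicate block and between 77 and 2808 with 1 library left out, the highest without DNAJ-PKAc C. Same-lettered libraries did not deviate together (correlations of their deviations of 0.211, -0.198 and 0.0282 for A, B and C), so the letters were not taken as pairs. With the block Skp2 lost its call (edgeR adjusted p = 0.0601). Of the 10 genes, 3 were called higher by DESeq2, and with 1 library left out between 0 and 4 were called higher and between 0 and 1 lower, the only calls being without DNAJ-PKAc C. The log2 difference of Ccnd2 ran from -1.15 to 0.29 and that of E2f1 from -0.13 to 0.25 with 1 library left out. The difference in the Ccnd1 share of D cyclins ran from -9.67 to 2.74 percentage points, against -3.83 with all libraries, and turned direction without DNAJ-PKAc C. With mean in place of longest transcript lengths the difference in the Cdk4 share was 1.10 percentage points, against 0.51, and the Ccnd2 share was 47.8% against 26.0% in WT B and 39.5% against 21.9% in DNAJ-PKAc C. The cause of these changes was not tested. The other scalings and filters, dispersions without the robust option and limma-voom left all 10 genes uncalled and in the same direction, but limma-voom gave Ccne2 a log2 difference of 0.24, against 0.94. The lowest libraries held 18 counts of Ccne2 and 59 of Ccne1, fewer than for any other of the 10 genes. The SE of Ccne2 was 0.78 with all libraries and 0.18 without DNAJ-PKAc C, and that of Ccne1 was 0.40 and 0.17. The part of counting error in these values was not tested.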
